A study of Homo sapiens with 9 samples.

Results

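The 7 genes CGAS, STING1, TBK1, IKBKE, TREX1, SAMHD1 and ENPP1 act in the sensing of DNA in the cytosol. Every ATAC-seq peak in the body of one of these genes or within 10 kb of either end was taken, from 4 deposited peak lists. There were 48 such peaks. Merging peaks that overlapped between lists gave 13 sites, of 71597 in all. The peaks mark accessible DNA, into which the Tn5 transposase inserts sequencing adapters, in HEK293T, a widely used line derived from human embryonic kidney. Although the series title speaks of leukemia stem cells, every library described here came from HEK293T.

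The control cells were wild type for the IGF2BP genes and had received CRISPR/Cas9 with a non-targeting guide (2 libraries). The other groups lacked IGF2BP1 (3 libraries), IGF2BP2 (2 libraries) or IGF2BP3 (2 libraries), which encode RNA-binding proteins of one family. Each knockout was 1 clone grown from a single sorted cell after transient transfection with a plasmid carrying 3 guides (the lists are named IGF2BP1-KO, IGF2BP2-KO and IGF2BP3-KO). The clone and the genotype therefore cannot be told apart. No group received any other treatment. Each group is represented by 1 peak list that joins its libraries and gives the position of each peak without a height, score or p-value. The IGF2BP1-KO list alone includes a library of the batch labelled 1. No spread between replicates could be measured, no test of a genotype was possible, and the read depth is unknown.

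The sensor cGAS binds double-stranded DNA and makes the messenger cyclic GMP-AMP (cGAMP), which binds STING on the endoplasmic reticulum. STING then recruits the kinase TBK1, and to a lesser extent the related kinase IKKε (the product of IKBKE), which phosphorylate the transcription factor IRF3 and so switch on type I interferon genes. TREX1, a DNA exonuclease, and SAMHD1, which breaks down deoxynucleotides, keep self DNA from triggering the pathway, and ENPP1 hydrolyses cGAMP outside the cell. HEK293T cells are known for little or no endogenous cGAS and STING, and are for that reason often used to rebuild the pathway from introduced genes.

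The lists held 39194 peaks (control), 50917 (IGF2BP1-KO), 60262 (IGF2BP2-KO) and 44041 (IGF2BP3-KO), with median widths of 771, 834, 651 and 713 bp. The lists differ in length and in median width, so the width of each member peak is given with its percentile among the peaks of its own list. A percentile can therefore differ between lists at like width. A promoter peak is one that reaches within 1 kb of the annotated start of a gene. For 12351 protein-coding genes with one in all 4 lists, the widest stood at median percentile 79.4 in the control. In IGF2BP1-KO, IGF2BP2-KO and IGF2BP3-KO these medians were 82.0, 85.9 and 82.0. Among cell type markers, promoter peaks were present in all 4 lists at the embryonic kidney genes WT1, LHX1, SALL1 and SIX2, and at PAX2 too when its other annotated starts were included. EYA1 had one in IGF2BP3-KO, and PAX8 had none in any list. Among blood markers, CD34 and SPI1 had a promoter peak in all 4 lists, CD3E in IGF2BP1-KO, and PTPRC, ITGAM and MPO in none. The endothelial genes PECAM1 and CDH5 had none, and of the fibroblast genes DCN had one in the IGF2BP1-KO and IGF2BP2-KO lists, COL1A2 in IGF2BP2-KO and PDGFRB in none.

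The promoters of the 7 genes formed 3 groups. TBK1, IKBKE, SAMHD1 and ENPP1 had a promoter peak in all 4 lists, as did 61.7% of 20033 protein-coding genes. TREX1 had one in the IGF2BP1-KO and IGF2BP2-KO lists alone. CGAS and STING1 had none in any list, a state shared with 31.6% of protein-coding genes. The letters before the starts are shown for the 5 genes with a promoter peak, because those promoters differ sharply in their content of CpG, the dinucleotide that marks many constitutively active promoters. The sequences are from RefSeq (GRCh38.p14), read 5′ to 3′ towards the start, with each CpG in capitals. They cover the 250 bases before the start for 4 genes, at chr12:64451870-64452119 (plus strand, TBK1), chr20:36951709-36951958 (minus strand, SAMHD1), chr6:131807770-131808019 (plus strand, ENPP1) and chr1:206470226-206470475 (plus strand, IKBKE). For TREX1, whose start lies inside the neighbouring gene ATRIP, the 30 bases before it are shown, at chr3:48465800-48465829 (plus strand).
TBK1: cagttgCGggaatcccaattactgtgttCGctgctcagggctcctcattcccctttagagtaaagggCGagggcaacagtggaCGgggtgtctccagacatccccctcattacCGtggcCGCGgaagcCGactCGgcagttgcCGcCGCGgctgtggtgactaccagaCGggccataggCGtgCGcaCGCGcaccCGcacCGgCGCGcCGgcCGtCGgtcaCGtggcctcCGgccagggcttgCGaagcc
SAMHD1: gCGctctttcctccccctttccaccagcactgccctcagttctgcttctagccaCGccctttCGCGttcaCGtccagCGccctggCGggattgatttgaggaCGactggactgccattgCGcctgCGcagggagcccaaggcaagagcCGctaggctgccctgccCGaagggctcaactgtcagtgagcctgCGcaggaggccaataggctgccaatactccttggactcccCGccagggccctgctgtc
ENPP1: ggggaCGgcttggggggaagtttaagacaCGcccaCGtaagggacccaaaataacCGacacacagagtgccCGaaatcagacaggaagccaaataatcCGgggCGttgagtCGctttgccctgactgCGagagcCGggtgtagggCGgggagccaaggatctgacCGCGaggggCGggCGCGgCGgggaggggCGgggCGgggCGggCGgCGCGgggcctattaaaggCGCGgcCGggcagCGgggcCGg
IKBKE: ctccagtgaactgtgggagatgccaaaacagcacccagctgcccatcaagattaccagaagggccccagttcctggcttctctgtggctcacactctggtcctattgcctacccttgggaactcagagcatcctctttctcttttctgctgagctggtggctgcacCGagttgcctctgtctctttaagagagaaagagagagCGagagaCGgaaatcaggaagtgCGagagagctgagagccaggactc
TREX1: agccctgccctgcctgtggaattgtcctga

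Over the 300 bases from 250 before to 50 after the start, the TBK1 promoter held 35 CpG, an observed over expected ratio of 1.00. ENPP1 held 37 CpG (ratio 1.05) and SAMHD1 held 22 (ratio 0.69). IKBKE held 5 CpG (ratio 0.22) and TREX1 held 3 (ratio 0.12). Among 35116 RefSeq promoters, these ratios stood at percentiles 91.7 (TBK1), 95.2 (ENPP1), 56.9 (SAMHD1), 24.0 (IKBKE) and 12.2 (TREX1). TBK1, ENPP1 and SAMHD1 thus had CpG-rich promoters, and IKBKE and TREX1 CpG-poor ones.

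Across all promoters of the table, a peak in all 4 lists was found at 84.0% of the 17166 with a CpG ratio of at least 0.6 and at 15.7% of the 17950 below it. In the narrower class with ratios from 0.2 to 0.3, where IKBKE lies, 11.1% of 3856 promoters had a peak in all 4 lists and 78.6% had none. In the class from 0.1 to 0.2, where TREX1 lies, 6.19% of 4219 promoters had a peak in all 4 lists, 9.27% in 1 to 3 lists and 84.5% in none. The IKBKE promoter therefore belonged to the minority of CpG-poor promoters with a peak in every list. This comparison across promoters is a description, and neighbouring promoters are not independent.

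**Figure D1:**
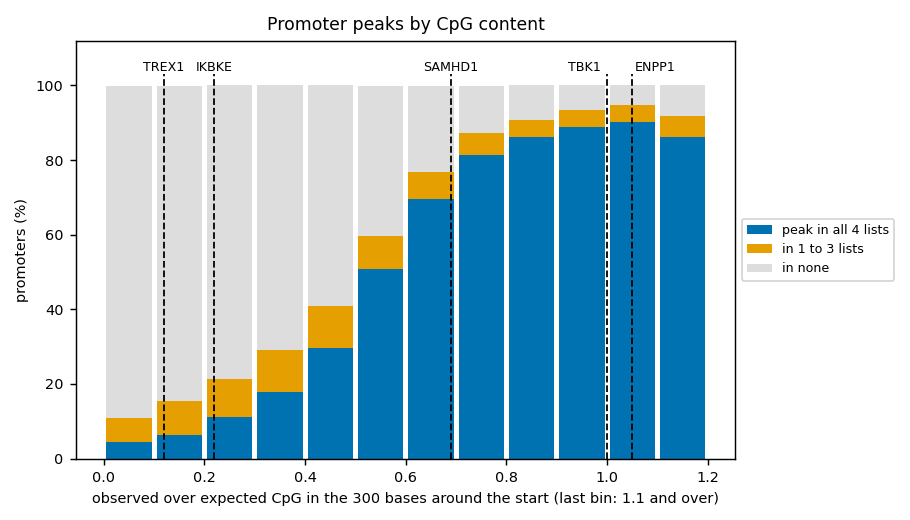
The bars give, for RefSeq promoters in classes of observed over expected CpG (x axis), the percentage with a peak in all 4 lists (blue), in 1 to 3 lists (orange) and in none (grey). Dashed lines mark the 5 genes: TBK1 (1.00), ENPP1 (1.05) and SAMHD1 (0.69) lie where most promoters have a peak in all lists, and IKBKE (0.22) and TREX1 (0.12) where few do.

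Short motifs were searched on both strands of the same 300 bases, after the sequences had been seen. The TBK1 promoter held 1 match to the ETS-type element CCGGAAG, which is present in 10.3% of all promoters, 1 to the E-box CACGTG (7.26%) and 1 to TGCGCA, a short element of NRF1 type (8.24%). SAMHD1 held 2 matches to TGCGCA. ENPP1 held 7 matches to the GC box GGGCGG, which is present in 45.0% of promoters, some of them overlapping. IKBKE and TREX1 held none of these 4 motifs. Among promoters with a peak in all 4 lists, the shares with a match were higher. They were 17.3% (CCGGAAG), 9.47% (CACGTG), 13.2% (TGCGCA) and 70.4% (GGGCGG). The core of the interferon-stimulated response element, GAAANNGAA (8.11% of promoters), and the kappaB pattern searched (5.91%) had no match in any of the 5 windows. The letters of that kappaB pattern are not given here, so related forms of the element may be present. A match shows that the letters are there, not that a factor binds.

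CGAS encodes the sensor itself. Its body (chr6:73423711-73452297, 28.6 kb) held no peak in any of the 4 lists. Of 3596 protein-coding genes 20 to 40 kb long, 12.4% had no peak in their body in any list. The single site in its surroundings lay at the lower-coordinate end of the neighbouring gene MTO1, which encodes a mitochondrial tRNA modification enzyme. Its peaks ran from 73461212 to 73462344 in the control (1133 bp, percentile 78.3), from 73461213 to 73462363 in IGF2BP1-KO (1151 bp, 75.9) and from 73461230 to 73462352 in IGF2BP2-KO (1123 bp, 85.6). The IGF2BP3-KO peak, from 73461409 to 73462355, was the narrowest of the 4 (947 bp, 70.2). The gap between the edge of CGAS and this site was 8.91 kb in the control, 8.91 kb in IGF2BP1-KO, 8.93 kb in IGF2BP2-KO and 9.11 kb in IGF2BP3-KO. On the other side, the nearest peak was 34.2 to 34.3 kb away in every list. CGAS thus sat in a stretch of 71.7 to 72.0 kb without a peak, with borders that hardly differed between the lists.

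STING1 encodes the adaptor that receives cGAMP. It was the one gene of the 7 with no peak at all in its body (chr5:139475533-139482758, 7.23 kb) or within 10 kb, in any list. Of 20033 protein-coding genes, 10.5% were without a peak over the same extent in all 4 lists. Of the 2495 protein-coding genes 5 to 10 kb long, 31.8% had no peak in the body in any list. The nearest peak on the lower-coordinate side lay at a start of DNAJC18, 35.5 to 35.7 kb away. On the other side, narrow peaks of 312, 343 and 335 bp lay 30.9 kb away in the control, IGF2BP2-KO and IGF2BP3-KO lists, at percentiles 1.96, 6.90 and 4.36. The IGF2BP1-KO list lacked that peak, and its nearest one was 34.9 kb away (881 bp, percentile 55.0). The stretch without a peak measured 73.8 kb in the control and 77.7, 73.8 and 73.7 kb in IGF2BP1-KO, IGF2BP2-KO and IGF2BP3-KO.

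The surroundings of both genes were not devoid of accessible sites. Within 1 Mb of CGAS there were 23 peaks in the control and 29, 39 and 20 in IGF2BP1-KO, IGF2BP2-KO and IGF2BP3-KO. Within 1 Mb of STING1 there were 61 peaks in the control and 66, 71 and 60 in the knockouts in the same order. As a share of each list's peaks, the log2 difference from the control was -0.04, 0.14 and -0.37 around CGAS. Around STING1 it was -0.26, -0.40 and -0.19. Because the promoter table does not hold CGAS, STING1 or MTO1, both ends of these genes were searched. Neither gene had a promoter-peak profile to compare, so no genes of like profile are named.

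**Figure D2:**
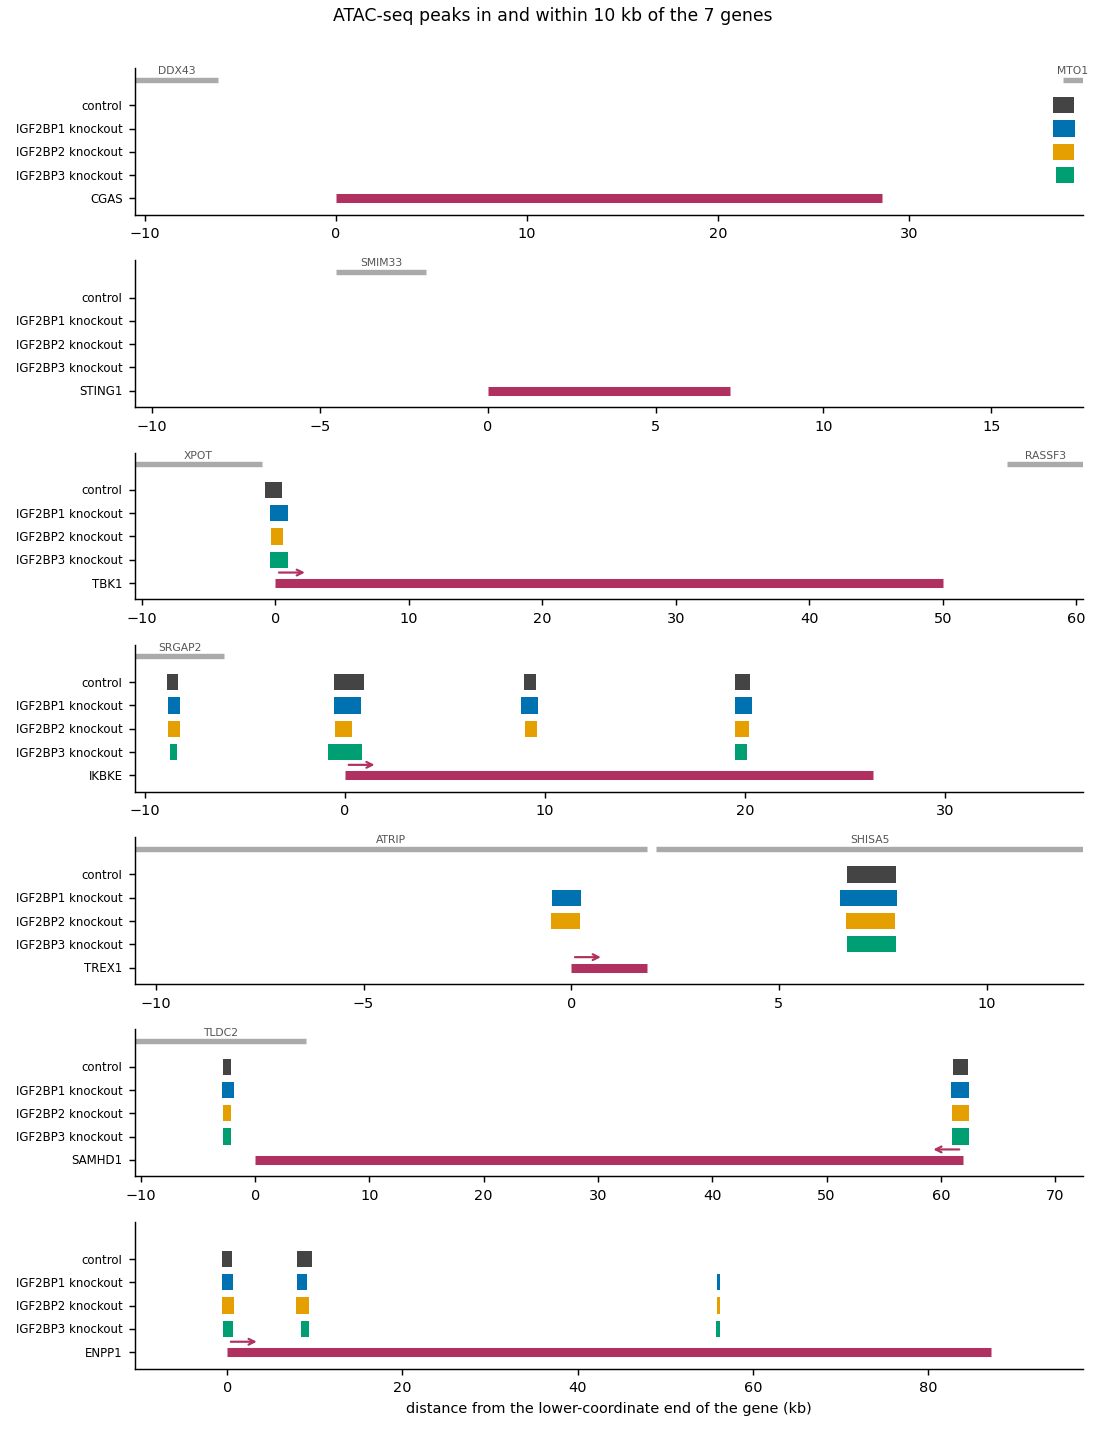
Each panel shows 1 of the 7 genes (dark red bar, with an arrow at the start where the strand is in the table) and 10 kb on either side, on an axis in kb from the lower-coordinate end of the gene. Coloured boxes are peaks of the 4 lists drawn to scale and grey bars are neighbouring protein-coding genes. STING1 has no box, CGAS has boxes only at MTO1, and the TREX1 start has boxes in 2 of the 4 lists.

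TBK1, the kinase that phosphorylates IRF3 downstream of STING, spans chr12:64452120-64502114 (49995 bp) and had 1 site, at its start. The promoter peak measured 1244 bp in control (percentile 84.1), 1304 bp in IGF2BP1-KO (83.8), 923 bp in IGF2BP2-KO (75.5) and 1311 bp in IGF2BP3-KO (88.7). The log2 ratio of knockout to control width was 0.07, -0.43 and 0.08 in IGF2BP1-KO, IGF2BP2-KO and IGF2BP3-KO. These values stood at percentiles 42.2, 7.24 and 67.3 among the 12708, 12586 and 12562 protein-coding genes with a promoter peak in both lists, whose medians were 0.10, 0.00 and 0.00. Dividing by the list medians left -0.19 for IGF2BP2-KO and gave -0.05 and 0.19 for IGF2BP1-KO and IGF2BP3-KO. That division shifts every gene of a list alike, so these values kept their percentiles. The medians over protein-coding genes became -0.01, 0.24 and 0.11 in IGF2BP1-KO, IGF2BP2-KO and IGF2BP3-KO. The IGF2BP2-KO peak was the narrow one of the 4.

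The TBK1 peaks differed in position too. The control peak reached 762 bp upstream of the start, whereas the knockout peaks reached 383, 361 and 390 bp. Downstream, the control peak ended 481 bp after the start and the knockout peaks ended 920, 561 and 920 bp after it. Both edges of all 3 knockout peaks thus lay further downstream than those of the control peak. In IGF2BP2-KO the downstream edge differed by 80 bp, so that peak was mainly shorter on the upstream side. The 3 comparisons share 1 control peak, and how often other sites differ in this way was not counted. A core of 843 bp around the start was common to the 4 lists. No further peak lay in the body or in the flanks.

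IKBKE, which encodes IKKε, had 4 sites, more than any other of the 7 genes. It spans chr1:206470476-206496889 (26.4 kb). Its promoter peak measured 1477 bp in control (percentile 92.1), 1352 bp in IGF2BP1-KO (85.8), 845 bp in IGF2BP2-KO (69.9) and 1688 bp in IGF2BP3-KO (96.5). The widest was 2.00 times the narrowest, a spread at percentile 96.8 among 11281 protein-coding genes with 1 promoter peak in each list, for which the median was 1.22. Both the low value in IGF2BP2-KO and the high value in IGF2BP3-KO contributed to it.

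The log2 width ratio to the control at the IKBKE promoter was -0.13 in IGF2BP1-KO, -0.81 in IGF2BP2-KO and 0.19 in IGF2BP3-KO (percentiles 8.28, 2.20 and 83.2 among protein-coding genes). Dividing by the list medians left -0.56 for IGF2BP2-KO, beside a median of 0.24 over protein-coding genes after the same division. Among 1757 sites of all 4 lists whose control peak was within 100 bp of the same width, the IGF2BP2-KO value stood at percentile 3.84. The upstream edge was nearly constant in 3 lists, at 531, 540 and 504 bp before the start in the control, IGF2BP1-KO and IGF2BP2-KO. It was the downstream edge that set the IGF2BP2-KO peak apart, at 340 bp after the start against 945 bp in control, 811 bp in IGF2BP1-KO and 829 bp in IGF2BP3-KO. The IGF2BP3-KO peak instead began further upstream, at 858 bp.

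Inside IKBKE there was a site 9.28 kb after the start, with peaks of 628 bp in control (206479422 to 206480049, percentile 33.1), 818 bp in IGF2BP1-KO (48.4) and 610 bp in IGF2BP2-KO (44.8). The IGF2BP3-KO list had no peak there, and its nearest peak was 7.98 kb away. Of the sites within 10 kb of protein-coding genes, 5.26% were in every list but IGF2BP3-KO. Of 4493 control peaks within 50 bp of the same width, 23.0% had no counterpart in IGF2BP3-KO. That share counts such peaks whatever the other lists hold.

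A second internal site of IKBKE, 19.8 kb after the start, was present in all lists. Its peaks measured 737 bp in control (206489985 to 206490721, percentile 46.2), 851 bp in IGF2BP1-KO (51.8), 697 bp in IGF2BP2-KO (55.9) and 561 bp in IGF2BP3-KO (31.6). The fourth site, at -8.57 kb from the start, lay inside the neighbouring gene SRGAP2. Its peaks measured 544, 621, 622 and 374 bp in the same order (percentiles 23.3, 23.9, 46.3 and 8.12). At both of these sites, unlike at the promoter, the IGF2BP3-KO peak was the narrowest of the 4. Whether the internal sites are exonic or intronic was not determined, since the annotation used gives gene ends alone.

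**Figure D3:**
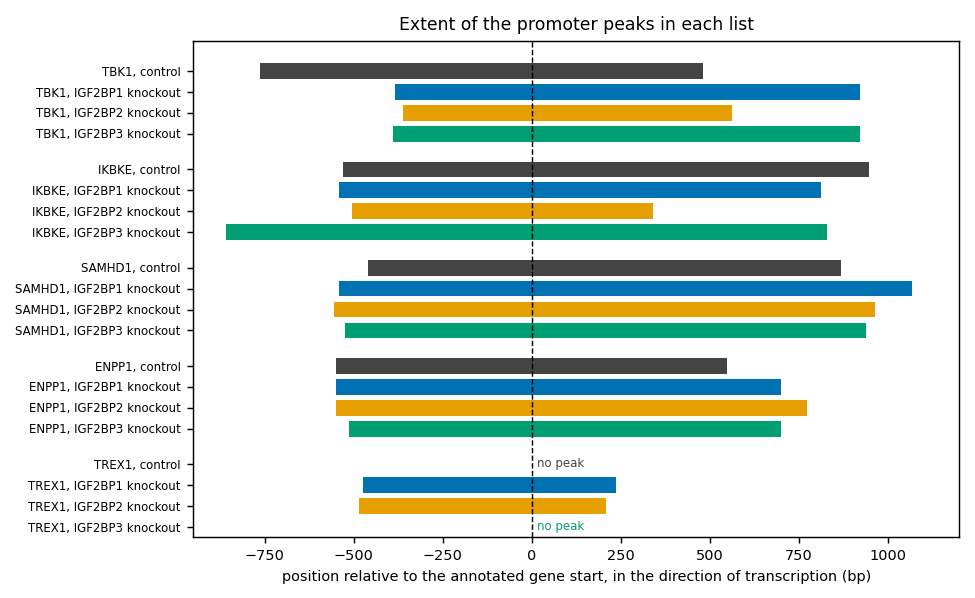
Bars show the extent of the promoter peak of 5 genes in each list, in bp from the annotated start (dashed line) in the direction of transcription. The TBK1 control bar reaches further upstream than the knockout bars, the IKBKE bar of IGF2BP2-KO ends early downstream, and TREX1 has a bar in 2 lists.

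TREX1, the exonuclease that degrades DNA in the cytosol, spans chr3:48465830-48467645 (1.82 kb). A promoter peak was present in IGF2BP1-KO (48465356 to 48466066, 711 bp, percentile 35.5) and in IGF2BP2-KO (48465345 to 48466039, 695 bp, percentile 55.7). The control and the IGF2BP3-KO lists had no peak there, and in both the nearest was 6.39 kb away. Where present, the 2 peaks were nearly identical, reaching 474 and 485 bp before the start and 236 and 209 bp after it. TREX1 was the one gene of the 7 whose promoter peak differed in presence between the control and any knockout.

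Of the 3 genes without a control promoter peak (CGAS, STING1 and TREX1), 1 had one in IGF2BP1-KO, 1 in IGF2BP2-KO and 0 in IGF2BP3-KO. Among all 7177 protein-coding genes without one in the control, the shares were 7.38%, 7.90% and 6.06%. Of the 4 genes with a control promoter peak, 0 lacked one in any knockout, where the shares over 12856 protein-coding genes were 1.15%, 2.10% and 2.29%. At the level of sites, 7.07% of those within 10 kb of protein-coding genes were in the IGF2BP1-KO and IGF2BP2-KO lists alone. Of 6983 IGF2BP1-KO peaks within 50 bp of the TREX1 peak's width, 37.0% had no counterpart in the control and 21.5% had none in the control or IGF2BP3-KO. For 7368 IGF2BP2-KO peaks of like width, these shares were 37.2% and 21.9%. These shares count peaks at any position, whatever the other knockout list holds. The 2 lists that hold the TREX1 promoter peak were also the 2 longest. When each list was cut to its 39194 widest peaks, both still held it. The part of list length in this difference was not tested further.

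The start of TREX1 lies within ATRIP, which encodes a partner of the checkpoint kinase ATR, so the peak cannot be assigned to one of the 2 genes by position. Downstream of TREX1, all lists had a site at an alternative start of SHISA5. It measured 1178 bp in control (percentile 80.9), 1376 bp in IGF2BP1-KO (86.7), 1182 bp in IGF2BP2-KO (87.8) and 1177 bp in IGF2BP3-KO (83.3). The widest was 1.17 times the narrowest, against a median of 1.32 over 28672 sites with 1 peak in each list. Apart from the wider IGF2BP1-KO peak, the SHISA5 site was of nearly one width in the lists.

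SAMHD1, which breaks down deoxynucleotides, runs on the minus strand (chr20:36889773-36951708, 61.9 kb). Its promoter peak measured 1330 bp in control (percentile 87.6), 1610 bp in IGF2BP1-KO (93.2), 1517 bp in IGF2BP2-KO (95.8) and 1461 bp in IGF2BP3-KO (92.8). All 3 knockout peaks were wider than the control peak, and the control peak lay wholly within each of them, as the common core of 1330 bp shows. The log2 ratios were 0.28, 0.19 and 0.14, at percentiles 78.2, 84.2 and 76.3 among protein-coding genes. No peak lay elsewhere in the body. A site beyond the far end, inside TLDC2, measured 757, 1000, 760 and 733 bp in control, IGF2BP1-KO, IGF2BP2-KO and IGF2BP3-KO (percentiles 48.6, 65.4, 62.8 and 52.2).

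ENPP1, the hydrolase of extracellular cGAMP and, as a source of pyrophosphate, a regulator of mineralisation, was the longest of the 7 genes (chr6:131808020-131895155, 87.1 kb). Its promoter peak measured 1099 bp in control (percentile 76.3), 1251 bp in IGF2BP1-KO (81.3), 1325 bp in IGF2BP2-KO (92.1) and 1213 bp in IGF2BP3-KO (84.8). The log2 ratios were 0.19, 0.27 and 0.14 (percentiles 66.5, 90.4 and 77.2). As at SAMHD1, every knockout peak was wider than the control peak. This was so at 27.4% of the 28672 sites with 1 peak in each list.

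**Figure D4:**
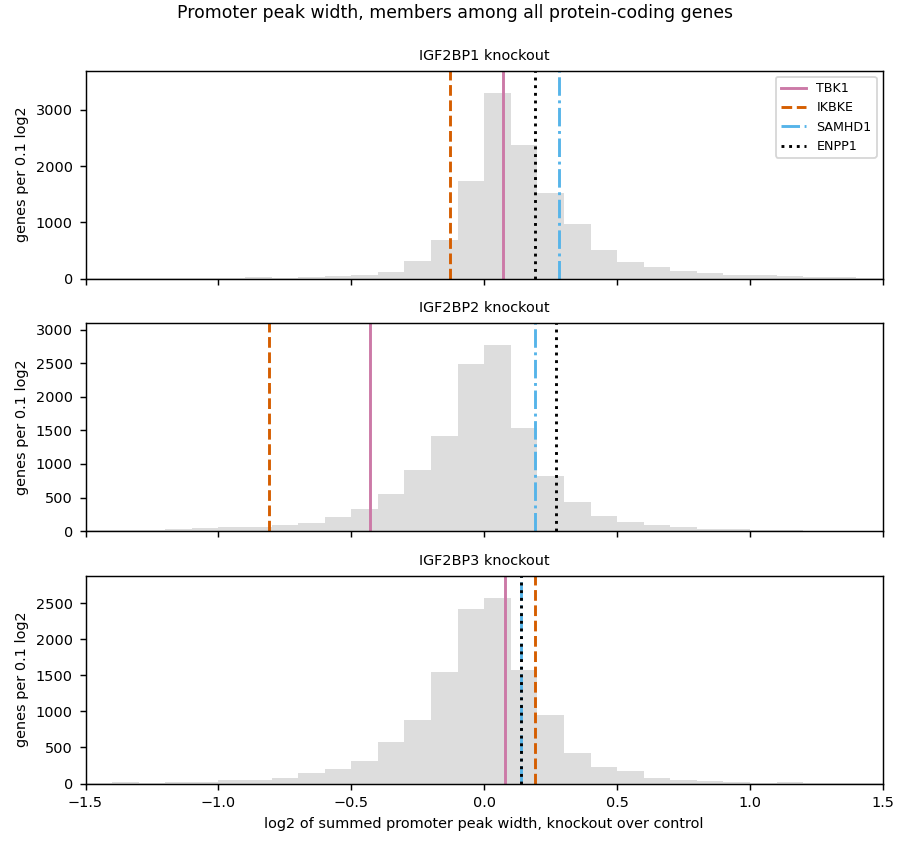
Grey bars count protein-coding genes by the log2 ratio of summed promoter peak width, knockout over control (x axis), with 1 panel for each knockout. Lines mark TBK1, IKBKE, SAMHD1 and ENPP1: IKBKE (-0.81) and TBK1 (-0.43) lie in the lower tail in IGF2BP2-KO. All 4 lie above 0 in IGF2BP3-KO, at percentiles of 67.3 to 83.2 among these genes.

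The opposite direction was seen at a site inside ENPP1, 8.76 kb after the start. Its peak measured 1712 bp in control (131815962 to 131817673, percentile 96.3), 1089 bp in IGF2BP1-KO (72.0), 1403 bp in IGF2BP2-KO (93.8) and 836 bp in IGF2BP3-KO (61.7). The control peak was thus the widest, and the IGF2BP3-KO peak was under 0.5 times its width. The log2 ratios were -0.65, -0.29 and -1.03, at percentiles 0.595, 15.5 and 1.57 among 924 sites whose control peak was within 100 bp of the same width. Every knockout peak was narrower than the control peak at 16.3% of the 28672 sites, and at this one alone of the 10 member sites in all lists. The site is described because it had the largest width difference of the 10, so these percentiles describe a chosen extreme. The IGF2BP1 and IGF2BP2-KO peaks began within 60 bp of the control start but ended 587 and 368 bp short of its end. The IGF2BP3-KO peak began 511 bp later and ended 365 bp earlier.

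A narrow site deep in ENPP1, 56.03 kb after the start, was shared by the 3 knockout lists and absent from the control. Its peaks measured 384 bp (131863855 to 131864238) in IGF2BP1-KO, 427 bp (131863860 to 131864286) in IGF2BP2-KO and 427 bp (131863812 to 131864238) in IGF2BP3-KO. They were among the narrow peaks of their lists, at percentiles 2.63, 16.4 and 13.6. The nearest control peak was 45.7 kb away. Of the sites within 10 kb of protein-coding genes, 5.65% had this distribution. Of IGF2BP1-KO, IGF2BP2-KO and IGF2BP3-KO peaks within 50 bp of the same widths, 66.5%, 67.1% and 50.9% had no control counterpart. When each list was cut to its 39194 widest peaks, the site was left in IGF2BP3-KO alone. Within 1 Mb of ENPP1, the share of a list's peaks was above that of the control in all 3 knockouts. The log2 differences were 0.18, 0.49 and 0.19. Around STING1, IKBKE, TREX1 and SAMHD1 that share was below the control in all 3 knockouts. Around CGAS and TBK1 its direction varied. The part of the surroundings in the difference at this ENPP1 site was not tested.

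**Figure D5:**
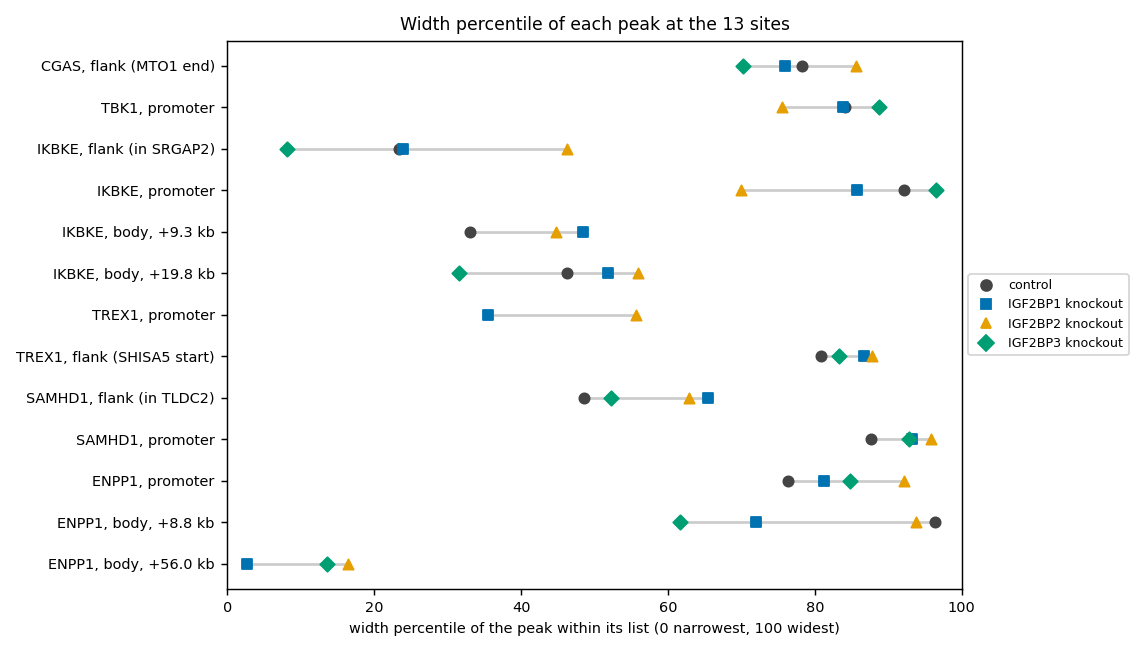
Each symbol is 1 peak at 1 of the 13 sites (rows), placed by its width percentile within its list on an axis from 0 (narrowest) to 100 (widest), with the lists in 4 colours and shapes. Promoter sites other than TREX1 lie between 69.9 and 96.5, where the medians over protein-coding genes are 79.4 to 85.9 by list. The ENPP1 site at 56.03 kb lies under 17 in the 3 knockout lists that hold it.

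Over the 7 genes together, the lists held 11 peaks (control), 13 (IGF2BP1-KO), 13 (IGF2BP2-KO) and 11 (IGF2BP3-KO). Of the 13 sites, 10 were in all 4 lists, where 48.9% of the 44914 sites within 10 kb of protein-coding genes were. Sites reaching within 1 kb of a protein-coding gene's start made up 6 of the 13, of which 5 were in all lists, against 87.7% of 12601 such sites. The other 7 included 5 in all lists, against 33.8% of 32313. Alternative starts were not counted, either for the members or for these shares, so the site at the alternative start of SHISA5 was among the other 7. The differences in presence between the lists at these genes were therefore at 3 sites, at the TREX1 start, inside IKBKE and inside ENPP1.

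The spread of promoter widths was ordinary at 2 of the 4 genes with a promoter peak in every list. The widest over narrowest ratio was 1.21 at both SAMHD1 and ENPP1 (percentiles 48.3 and 47.2), 1.42 at TBK1 (79.8) and 2.00 at IKBKE (96.8). The 2 kinases shared a narrow peak in IGF2BP2-KO, which was the narrowest list at 31.5% of 11281 genes. Width ratios of the surrounding sites were small. The median log2 ratio of sites in all lists within 1 Mb was 0.03 around TBK1 (20 sites) and -0.06 around IKBKE (47 sites) in IGF2BP2-KO. Around ENPP1 it was 0.08, 0.05 and 0.02 in IGF2BP1-KO, IGF2BP2-KO and IGF2BP3-KO (26 sites).

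Other genes of the pathway were taken from a list of 60 by their role as sensors, cofactors, nucleases, cGAMP transporters, trafficking and ubiquitin factors, kinase adaptors and outputs. A promoter peak was present at 47 of the 60 in the control and at 49, 48 and 48 in IGF2BP1-KO, IGF2BP2-KO and IGF2BP3-KO, with 45 in all 4 lists. Over protein-coding genes the shares were 64.2%, 66.1%, 65.7% and 64.9%, with 61.7% in all 4 lists. The 10 with none in any list were the sensors AIM2 and ZBP1, the extracellular nuclease DNASE1L3, the cGAMP importer SLC19A1, the channel subunit LRRC8C, the cGAMP hydrolase ENPP3, the inhibitor NLRC3, the ubiquitin ligase TRAF3 and the outputs IFNB1 and CXCL10. IRF3, the substrate of TBK1, had promoter peaks in all lists. Their summed width was 1586 bp in control and 2012, 1375 and 788 bp in IGF2BP1-KO, IGF2BP2-KO and IGF2BP3-KO. Here and below, widths of pathway genes are sums over a gene's promoter peaks, without percentiles. A smaller sum can come from fewer or from narrower peaks.

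Of the 13 pathway genes without a control promoter peak, 2, 3 and 1 had one in IGF2BP1-KO, IGF2BP2-KO and IGF2BP3-KO, beside the 7.38%, 7.90% and 6.06% of all protein-coding genes given above. They were the DNA sensor IFI16 in all 3 (586, 511 and 571 bp), the STING retrieval factor SURF4 in the IGF2BP1 and IGF2BP2-KOs (360 and 400 bp), and the TBK1 adaptor TANK in IGF2BP2-KO (329 bp). Of the 47 with a control promoter peak, 0, 2 and 0 lacked one, beside 1.15%, 2.10% and 2.29% of protein-coding genes. The 2 were IRF7, an interferon transcription factor (626 bp in control, 815 bp in IGF2BP1-KO and 378 bp in IGF2BP3-KO), and ABCC1, a cGAMP exporter (983, 1295 and 470 bp in the same lists). The 3 gains depended on which start was used. When every start in the promoter table was accepted, IFI16 had no promoter peak in any list, SURF4 and TANK had one in the control too, LRRC8C had one in every list, and SLC19A1 had one in the 3 knockouts but lacked one in the control. The 2 absences in IGF2BP2-KO were seen with either choice.

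The median log2 ratio of summed promoter peak width was taken over the pathway genes with a peak in both lists. It was 0.16 in IGF2BP1-KO (47 genes), 0.05 in IGF2BP2-KO (45 genes) and 0.01 in IGF2BP3-KO (47 genes). Over all protein-coding genes it was 0.10, 0.00 and 0.00. The pathway genes were therefore close to the whole in each list.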

How the data were processed

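ATAC-seq was made from 9 HEK293T libraries in 4 groups. The authors deposited 1 peak list per group, which gives chromosome, start and end, with no score or count. Per the submitters' processing notes, fastp 0.24.1, BWA 0.7.17, MACS2 3.0.0, bedtools and GRCh38 were used. Their settings, the treatment of the transposase offset and how libraries were joined are not given in the sources used here. Widths, percentiles (ties counted as 0.5), overlaps (at least 1 bp) and merged sites were computed in Python 3.11.15 with pandas 2.3.3 and checked on lists with known overlaps.

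Genes and starts came from RefSeq (GRCh38.p14). The strand was known for 15842 of 20033 protein-coding genes, and both ends were searched for the other 4191, CGAS and STING1 among them. The 60 pathway symbols and the marker symbols all matched, and some markers are not reported here. All 7 members and all their peaks are named, and other genes where they lie beside a member peak or, in the pathway list, differ in presence. IRF3 and the pathway genes without peaks were named after their values were seen. Members and lists were chosen with earlier results of these data known. Coordinates are counted from 1. Alternatives covered the flank, the promoter window, the overlap rule, merging, trimming and the widest peaks. Accepting any start in the promoter table, and taking only genes of known strand as background, were added after seeing the data.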

Additional observations from a re-analysis of the deposited data

How the results depend on the processing

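Of 164 comparisons of a value with an alternative, 149 kept their direction and stayed within 1.5 times, with width ratios compared as folds, 14 moved further and 1 changed sign. The counts of members with a promoter peak, including the 2 lists with a TREX1 peak, were unchanged under every alternative tried for them. In the gene body alone, peaks numbered 7 in the control and 7 in IGF2BP3-KO. With the widest 39194 peaks of each list, sites in 1 list numbered 1 (main 0), the ENPP1 site at 56.03 kb. Sites in all 4 lists numbered 9 (main 10), since the IGF2BP3-KO peak of the IKBKE site inside SRGAP2 was left out. Dividing by the list median turned the TBK1 width ratio in IGF2BP1-KO to -0.05. On the log2 scale that division moved other ratios by more than 1.5 times, such as TBK1 in IGF2BP2-KO from -0.43 to -0.19, SAMHD1 in IGF2BP2-KO from 0.19 to 0.43 and ENPP1 in IGF2BP1-KO from 0.19 to 0.07. It shifted all protein-coding genes of a list by the same amount, so percentiles among genes were unchanged. Pathway genes with a promoter peak in IGF2BP1-KO and not in the control numbered 1 at 500 bp, 1 at 2 kb, 1 with peaks trimmed to 200 bp, 1 with any start and 0 with the widest peaks. In the IGF2BP2 knockout they numbered 1 with any start and 0 with the widest peaks, and in IGF2BP3-KO 0 at 500 bp. Pathway genes with a control promoter peak that lacked one numbered 1 in IGF2BP1-KO with the widest peaks, and in IGF2BP3-KO 1 at 2 kb and 1 with the widest peaks. The cause was not tested. With genes of known strand alone as background, the shares gaining a promoter peak were 6.81%, 7.70% and 5.50%. No paired analysis was possible because each group has 1 list that joins its libraries, and for the same reason no library could be left out. Read depth is unknown, so the absence of a peak shows only that none was listed.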
